A study of Homo sapiens with 8 samples.

Results

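Genes of the TRAF3 module, NF-kB subunits and NF-kB inhibitors were followed in 8 RNA sequencing libraries of human multiple myeloma cells, and 10 genes were chosen by name: TRAF2, TRAF3, BIRC3, MAP3K14, NFKB1, NFKB2, RELA, RELB, NFKBIA and TNFAIP3. All 10 were found in the deposited table of 25906 genes, each under 1 symbol, and all 10 were among the 12583 genes with at least 1 FPKM (fragments per kilobase of transcript, scaled to the library's fragment total) in at least 2 libraries. The cells were MM.1S and NCI-H929, established myeloma lines, taken 72 hours after lentiviral transduction with a vector carrying CTBP2, a transcriptional corepressor, or with the empty vector (EV). The labels list 2 libraries each for CTBP2 in NCI-H929, EV in NCI-H929, CTBP2 in MM.1S and EV in MM.1S, and the study calls each pair biological duplicates. The tests group libraries by the line read from expression, which differs from the label for 2 CTBP2 libraries. So p-values measure the spread between libraries grouped in that way, pooled over the groups. Over both lines, that spread also holds any difference in the CTBP2 effect between the lines. Every culture, EV included, had been exposed to lentivirus, and no untransduced cells are among the libraries.

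NF-kB is a family of dimeric transcription factors that plasma cells use for survival. In the canonical branch, RELA and the p50 product of NFKB1 are held in the cytoplasm by the inhibitor NFKBIA until a signal destroys it. In the alternative branch, a complex of TRAF3, TRAF2 and the ubiquitin ligases BIRC2 or BIRC3 marks the kinase NIK, encoded by MAP3K14, for destruction. When that complex is disrupted, NIK accumulates and drives the cutting of the NFKB2 protein to p52, the partner of RELB. TNFAIP3, known as A20, is a ubiquitin-editing enzyme that switches canonical signalling off. Mutations in this network are frequent in myeloma, and several members, NFKBIA, TNFAIP3, BIRC3, NFKB2 and RELB among them, are themselves known NF-kB target genes. Messenger RNA levels do not report NIK protein or p52 formation, which were not measured here. In cultures analysed in bulk, fewer cells expressing a gene and less RNA per cell cannot be told apart.

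The promoters of the members the results turn on are shown to let the reader see where the NF-kB recognition sequence lies in each. RefSeq promoter windows on GRCh38.p14, reaching 250 bases before and 50 bases after a gene's start, were found for 9 of the 10 members, and RELB was not matched. The 250 bases before the start are printed 5′ to 3′ on the gene's strand, with the kappa B consensus on either strand in capitals. For NFKB2 the second of its 3 listed starts is shown.
BIRC3, chr11:102317234-102317483, plus strand: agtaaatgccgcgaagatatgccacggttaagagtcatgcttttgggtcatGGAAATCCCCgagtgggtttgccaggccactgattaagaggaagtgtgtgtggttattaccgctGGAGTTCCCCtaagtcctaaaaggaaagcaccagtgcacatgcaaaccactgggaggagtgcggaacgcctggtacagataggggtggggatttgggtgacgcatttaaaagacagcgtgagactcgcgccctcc
NFKBIA, chr14:35404750-35404999, minus strand: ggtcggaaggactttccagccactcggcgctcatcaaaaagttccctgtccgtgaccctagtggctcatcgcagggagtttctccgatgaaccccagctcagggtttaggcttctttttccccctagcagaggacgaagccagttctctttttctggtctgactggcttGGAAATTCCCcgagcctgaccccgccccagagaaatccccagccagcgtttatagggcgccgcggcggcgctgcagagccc
NFKB2, chr10:102394328-102394577, plus strand: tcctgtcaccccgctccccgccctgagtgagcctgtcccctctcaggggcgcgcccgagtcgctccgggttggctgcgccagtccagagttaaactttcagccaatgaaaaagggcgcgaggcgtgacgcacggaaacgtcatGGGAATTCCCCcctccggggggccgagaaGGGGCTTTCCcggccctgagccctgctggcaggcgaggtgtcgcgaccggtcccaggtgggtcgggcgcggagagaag
TNFAIP3, chr6:137867009-137867258, plus strand: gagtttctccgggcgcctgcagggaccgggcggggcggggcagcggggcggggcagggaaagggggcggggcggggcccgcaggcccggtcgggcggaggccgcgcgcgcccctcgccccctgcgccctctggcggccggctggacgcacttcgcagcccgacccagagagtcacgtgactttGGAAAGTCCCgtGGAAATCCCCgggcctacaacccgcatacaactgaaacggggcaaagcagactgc
MAP3K14, chr17:45317021-45317270, minus strand: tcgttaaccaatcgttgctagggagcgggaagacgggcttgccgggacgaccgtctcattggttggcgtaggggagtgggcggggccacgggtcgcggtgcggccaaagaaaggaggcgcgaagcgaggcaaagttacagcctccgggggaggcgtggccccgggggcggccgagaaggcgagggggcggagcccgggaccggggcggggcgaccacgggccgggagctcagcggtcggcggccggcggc
The windows shown for BIRC3, NFKB2 and TNFAIP3 each held 2 separate stretches that match the consensus, and the NFKBIA window held 1. Of the other NFKB2 windows, the first held no match and the third held 2. No match lay in the MAP3K14 window. Over all windows of the members, 6 of 9 genes had a match (TRAF3, BIRC3, NFKB1, NFKB2, NFKBIA and TNFAIP3), while the windows of TRAF2, MAP3K14 and RELA had none. Among the 27305 genes with windows of the same length, 13.3% had a match. A match describes letters in the window and was not tested for binding.

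CTBP2 measured 1621 to 5884 FPKM in the 4 CTBP2 libraries and at most 0.213 FPKM in the 4 EV libraries, so the vector labels held in all 8. The line labels held in 6. Of the CTBP2 replicate 2 libraries, the one labelled MM.1S lacked CCND2, which MM.1S expresses (0.0582 FPKM), and had 22.2 FPKM of FGFR3, which the translocation of NCI-H929 activates. The one labelled NCI-H929 had 60.7 FPKM of CCND2 and 0.0399 FPKM of FGFR3. Each library was therefore placed in the line its expression showed (CCND2 or FGFR3 above 10 FPKM), and results are also given without these 2 libraries. Wherever 2 CTBP2 values are given for a line, the second is from the library labelled for the other line. Plasma cell markers were high in all 8 libraries, with 192 to 345 FPKM of SDC1 and 421 to 1043 FPKM of XBP1. The 2 T cell markers summed to 2.44 to 53.3 FPKM in the CTBP2 libraries and 0.527 to 3.65 FPKM in the EV libraries, all but 0.214 FPKM at most from CD3E, while the defining marker CD3D was at or near 0. Summed B cell and monocyte markers reached at most 0.272 and 0.773 FPKM. The FPKM of all genes summed to 459733 to 544210 in the CTBP2 libraries and 547097 to 659837 in the EV libraries. Estimated depth was 15900000 to 21200000 fragments per library.

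Among the regulators of the alternative branch, BIRC3 and MAP3K14 messenger RNA rose with CTBP2, and BIRC3 did so in both lines. BIRC3, a ubiquitin ligase of the TRAF3 complex, had 4.28 and 7.59 FPKM in NCI-H929 CTBP2 libraries, against 1.43 and 0.888 FPKM in NCI-H929 EV libraries. In MM.1S it had 55.9 and 37.5 FPKM with CTBP2, against 15.9 and 18.6 FPKM with EV. All CTBP2 libraries of a line lay above both EV libraries of that line, yet NCI-H929 with CTBP2 stayed below MM.1S with EV. The log2 fold change of FPKM + 1 over both lines was 1.51 (SE 0.19, adjusted p = 0.00277 by limma), and without the 2 contradicted libraries it was 1.47 (adjusted p = 0.00406 by limma). Within NCI-H929 the log2 fold change was 1.65 (SE 0.28, adjusted p = 0.00523 by limma), and within MM.1S it was 1.36 (SE 0.28, adjusted p = 0.034 by limma). Without those 2 libraries it was 1.30 in NCI-H929 (adjusted p = 0.0131 by limma) and 1.64 in MM.1S (adjusted p = 0.0122 by limma).

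The MM.1S call of BIRC3 rests on a narrow margin, since 8 of 18 alternative analyses kept it. Leaving out either EV library of either line, the library labelled NCI-H929 CTBP2 replicate 2 or MM.1S CTBP2 replicate 1 ended it, with 1.08 to 1.64 (adjusted p = 0.055 to 0.288 by limma). The fit by line labels gave no call for BIRC3 over both lines (adjusted p = 0.365 by limma), and the other 17 alternatives kept the call.

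MAP3K14, the gene of the kinase NIK, had 5.68 and 7.23 FPKM in NCI-H929 CTBP2 libraries, against 3.08 and 2.84 FPKM in NCI-H929 EV libraries. In MM.1S it had 14.2 and 14.5 FPKM with CTBP2, against 11.04 and 12.55 FPKM with EV. The groups did not overlap in either line, and the gap was wider in NCI-H929. Its log2 fold change was 0.58 over both lines (SE 0.15, adjusted p = 0.0191 by limma), and in NCI-H929 it rose by 0.91 (SE 0.16, adjusted p = 0.00589 by limma). The MM.1S change of 0.26 did not pass (adjusted p = 0.321 by limma). Without the 2 contradicted libraries the rise in NCI-H929 was 0.76 (adjusted p = 0.0363 by limma), while over both lines 0.50 did not pass (adjusted p = 0.0541 by limma). Leaving out NCI-H929 EV replicate 1 or replicate 2 also ended the call over both lines (adjusted p = 0.0572 and 0.0599 by limma). MAP3K14-AS1 lies on the opposite strand and had 2.36 and 3.87 FPKM in NCI-H929 CTBP2 libraries, against 1.29 and 1.26 FPKM in NCI-H929 EV libraries. In MM.1S it had 1.94 and 1.83 FPKM with CTBP2, against 1.33 and 0.990 FPKM with EV. It thus lay higher with CTBP2 in both lines, as MAP3K14 did. The sources used here do not say whether strand was used in counting, so reads of this pair may be mixed. How much of the MAP3K14 rise such reads make up was not tested.

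TRAF3, the adaptor that brings NIK to the ligases, did not pass for CTBP2. It had 5.34 and 5.36 FPKM in NCI-H929 CTBP2 libraries, against 4.84 and 4.16 FPKM in NCI-H929 EV libraries, and in MM.1S 9.94 and 9.21 FPKM with CTBP2, against 7.48 and 7.53 FPKM with EV. The CTBP2 libraries were above the EV libraries in both lines, and the log2 fold change over both lines was 0.26 (SE 0.10, adjusted p = 0.0718 by limma). TRAF3, BIRC3 and MAP3K14 were the 3 members whose CTBP2 libraries lay above the EV libraries in both lines, as did 21.4% of all genes tested.

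TRAF2, which links the ligases to TRAF3, was the member with the lowest fold change over both lines, at -0.26 on the log2 scale (SE 0.19, adjusted p = 0.3 by limma). It had 9.82 and 6.88 FPKM in NCI-H929 CTBP2 libraries, against 14.6 and 11.8 FPKM in NCI-H929 EV libraries. In MM.1S the groups overlapped, with 26.4 and 30.6 FPKM with CTBP2, against 23.0 and 30.4 FPKM with EV. The log2 fold change was -0.61 in NCI-H929 (SE 0.21, adjusted p = 0.0584 by limma) and 0.10 in MM.1S (adjusted p = 0.805 by limma), and neither passed.

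**Figure D1:**
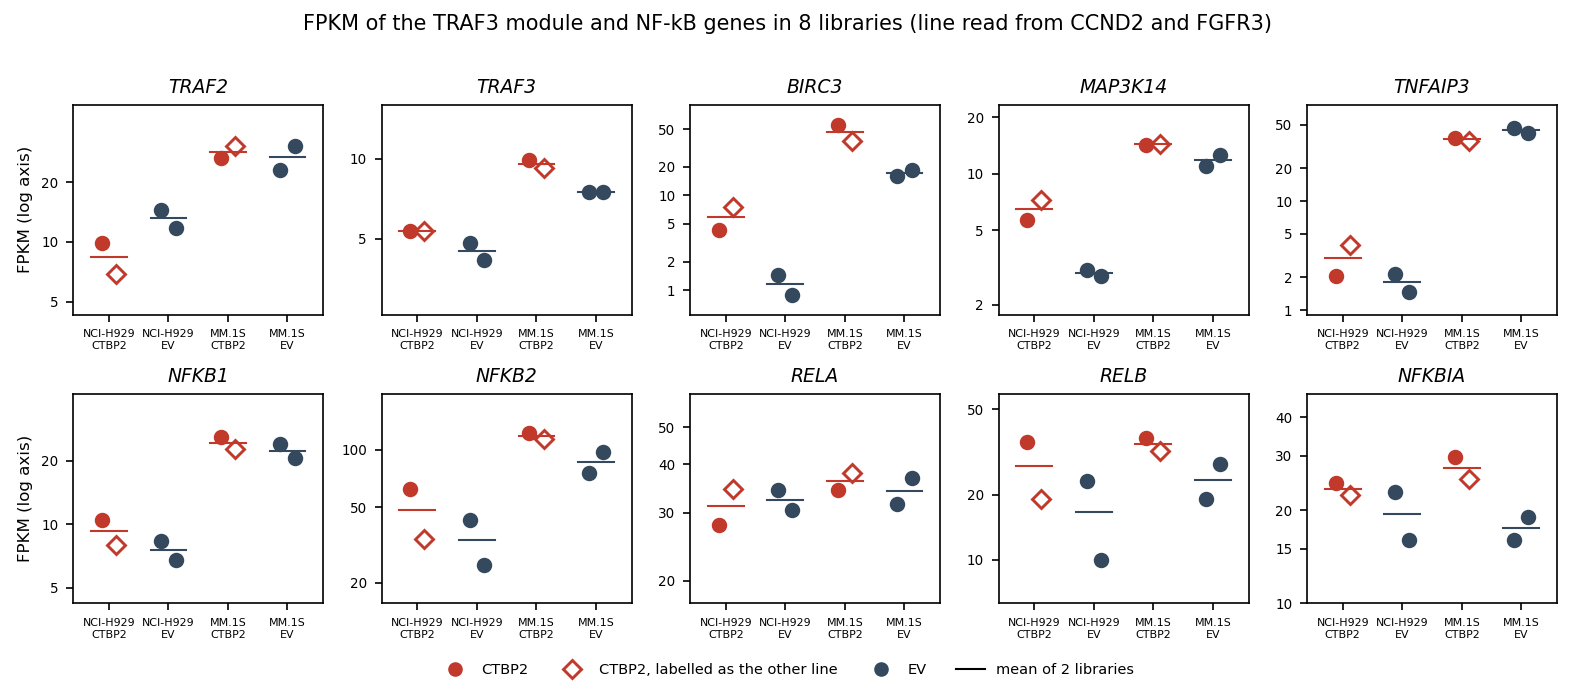
FPKM (log axes, a scale of its own in each panel) of the 10 genes in each library, by line as read from expression and by vector. Filled circles are libraries whose label matches that line, open diamonds the 2 libraries labelled for the other line, and bars the mean of 2 libraries. TNFAIP3 and BIRC3 separate the lines most, BIRC3 also separates the vectors within each line, and RELA stays between 28.0 and 38.0 FPKM in all 8.

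NFKB1, NFKB2, RELA and RELB, the subunit genes among the 10, did not pass for CTBP2, though RELB had an unadjusted p under 0.05. NFKB2, the precursor of p52, had 61.9 and 34.0 FPKM in NCI-H929 CTBP2 libraries, against 42.5 and 24.9 FPKM in NCI-H929 EV libraries. In MM.1S it had 122 and 114 FPKM with CTBP2, against 75.1 and 97.6 FPKM with EV. The groups were apart in MM.1S, with CTBP2 higher as for 31.6% of all genes tested, and overlapped in NCI-H929. The log2 fold change over both lines was 0.47 (SE 0.22, adjusted p = 0.119 by limma). RELB, its partner, had 35.3 and 19.1 FPKM in NCI-H929 CTBP2 libraries, against 23.2 and 10.0 FPKM in NCI-H929 EV libraries. With CTBP2 in MM.1S it had 36.8 and 32.2 FPKM, against 19.2 and 27.8 FPKM with EV. In NCI-H929 the replicates of RELB lay further apart than the means of the vectors, and its log2 fold change of 0.64 over both lines had an SE of 0.27 (adjusted p = 0.0889 by limma). Without the 2 contradicted libraries, NFKB2 was at 0.71 and RELB at 0.90 (adjusted p = 0.0545 and 0.0626 by limma).

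NFKB1, the source of p50, had 10.5 and 7.99 FPKM in NCI-H929 CTBP2 libraries, against 8.34 and 6.73 FPKM in NCI-H929 EV libraries. It had 25.9 and 22.8 FPKM with CTBP2 in MM.1S, against 24.1 and 20.5 FPKM with EV. The groups overlapped in both lines, and the log2 fold change was 0.19 (adjusted p = 0.262 by limma). RELA, the main activating subunit of the canonical branch, had 28.0 and 34.5 FPKM in NCI-H929 CTBP2 libraries, against 34.3 and 30.4 FPKM in NCI-H929 EV libraries. With CTBP2 in MM.1S it had 34.4 and 38.0 FPKM, against 31.6 and 36.9 FPKM with EV. RELA was the steadiest member, with its highest library 1.36 times its lowest, and a log2 fold change of 0.013 with an SE of 0.12.

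The inhibitors of the canonical branch among the 10 are NFKBIA and TNFAIP3. NFKBIA, which holds RELA and p50 in the cytoplasm, had 24.6 and 22.4 FPKM in NCI-H929 CTBP2 libraries, against 22.9 and 16.0 FPKM in NCI-H929 EV libraries. In MM.1S it had 29.7 and 25.2 FPKM with CTBP2, against 16.0 and 19.0 FPKM with EV. The groups were apart in MM.1S, with CTBP2 higher as for 31.6% of all genes tested, and overlapped in NCI-H929. Over both lines NFKBIA rose by 0.45 on the log2 scale (SE 0.15, adjusted p = 0.0408 by limma). Of 18 alternatives 7 kept that call, and without the 2 contradicted libraries the value was 0.54 (adjusted p = 0.0644 by limma). Leaving out any 1 library other than NCI-H929 EV replicate 1 and the one labelled MM.1S CTBP2 replicate 2 ended it (adjusted p = 0.0615 to 0.122 by limma).

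TNFAIP3, the gene of A20, had 2.07 and 3.99 FPKM in NCI-H929 CTBP2 libraries, against 2.15 and 1.46 FPKM in NCI-H929 EV libraries. In MM.1S it had 38.1 and 35.1 FPKM with CTBP2, against 47.1 and 42.1 FPKM with EV. CTBP2 was below EV in MM.1S, as for 31.3% of all genes tested, and overlapped it in NCI-H929. Neither the log2 fold change of -0.28 in MM.1S (SE 0.24) nor that of 0.49 in NCI-H929 (SE 0.24) passed (adjusted p = 0.49 and 0.144 by limma). Over both lines the TNFAIP3 value was 0.11 (SE 0.21, adjusted p = 0.7 by limma).

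In all, 3 of the 10 genes passed the test for CTBP2 over both lines, all of them higher, where 34.1% of all genes tested passed and 17.4% passed as higher. Their median log2 fold change was 0.36, beside 0.035 over all genes. Within MM.1S 1 of 10 passed (5.47% of all genes), and within NCI-H929 2 of 10 passed (32.9% of all genes). The share of members passing was close to the background over both lines. Without the 2 contradicted libraries BIRC3 was the 1 member that passed over both lines. Rescaling every library to the same total FPKM, summed without immunoglobulin genes and CTBP2, moved the median of all genes to 0.27. The calls moved to 3880 higher (30.5% of all genes) and 868 lower, beside 2186 higher and 2101 lower before it. Then 7 members passed as higher. The immunoglobulin genes left out held at most 0.00123% of a library's FPKM. The most abundant feature, MIR6723 or MIR4461, held 2.86 to 16.3% and stayed in these totals. In NCI-H929 the same rescaling gave 3923 higher and 651 lower calls, beside 2298 and 1840, and a median-of-ratios rescale gave 1926 higher and 2415 lower. Relative to that shift, BIRC3 at 1.74, MAP3K14 at 0.84 and RELB at 0.93 lay furthest above the median of all genes.

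**Figure D2:**
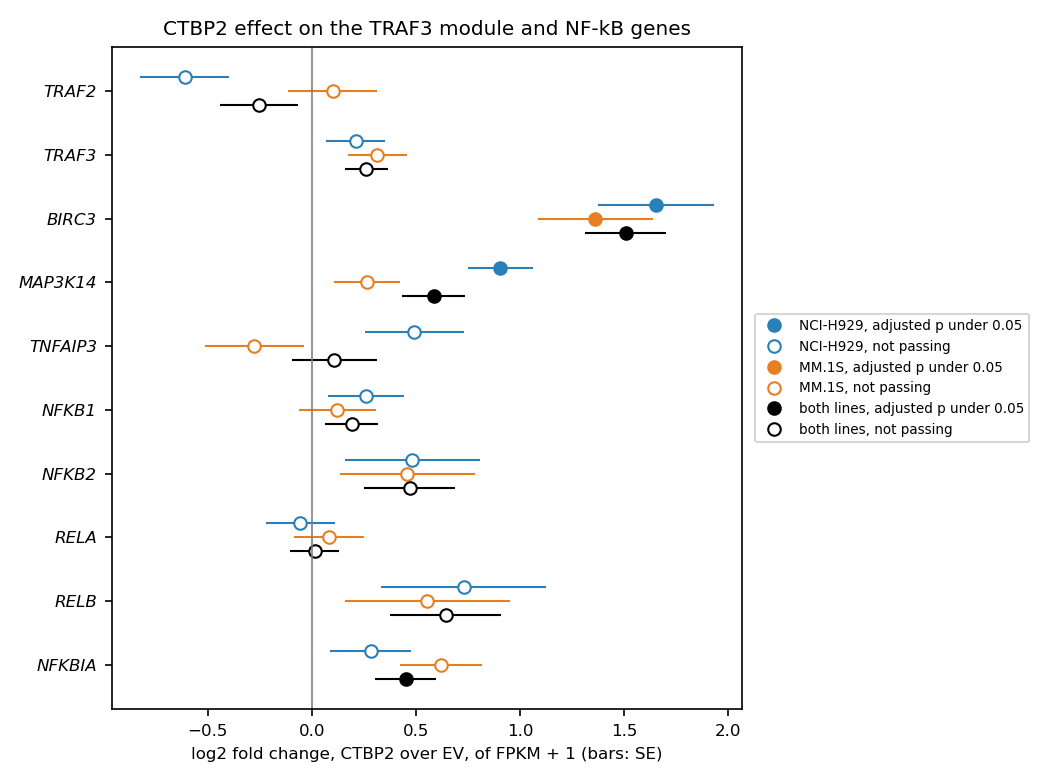
Log2 fold change of FPKM + 1, CTBP2 over EV, for each of the 10 genes in NCI-H929, in MM.1S and over both lines. Points are limma estimates, horizontal bars their SE, and filled points have an adjusted p under 0.05. BIRC3 is filled in all 3 comparisons, MAP3K14 over both lines and in NCI-H929, and NFKBIA over both lines.

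The CTBP2 effect in NCI-H929 was compared with that in MM.1S by an interaction term. With limma, 0 of the 10 genes passed, against 1.26% of all genes, and 2 members had an unadjusted p under 0.05. These were MAP3K14, with a difference of 0.64 (SE 0.22, NCI-H929 minus MM.1S, adjusted p = 0.22 by limma), and TRAF2, with -0.71 (SE 0.30, adjusted p = 0.313 by limma). BIRC3 differed by 0.29 with an SE of 0.39, so its change was not shown to differ between the lines.

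In NCI-H929 EV libraries, 7 of the 10 genes were lower than in MM.1S EV libraries, where 50.8% of all genes passed and 28.7% passed as lower. TNFAIP3 had the largest difference of the 10, with 2.15 and 1.46 FPKM in NCI-H929 EV libraries, against 47.1 and 42.1 FPKM in MM.1S EV libraries, and a log2 fold change of -4.03 (SE 0.24, adjusted p = 5.39e-06 by limma). BIRC3 followed at -3.09 (SE 0.28, adjusted p = 5.63e-05 by limma), and MAP3K14 at -1.69 (SE 0.16, adjusted p = 6.87e-05 by limma). NFKB1 was at -1.45 and NFKB2 at -1.37 on the log2 scale (adjusted p = 0.000361 and 0.0084 by limma). TRAF2 was at -0.96 and TRAF3 at -0.63 (adjusted p = 0.00627 and 0.00646 by limma).

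RELA, RELB and NFKBIA did not pass, with log2 fold changes of -0.075, -0.56 and 0.13 (adjusted p = 0.732, 0.268 and 0.622 by limma). The same 7 genes passed under each of the 3 rescalings, which put the median of all genes at -0.24 to 0.0037, beside -0.10 without them. Leaving out the 2 contradicted libraries or following the line labels changes no EV library, and the median of the 10 genes stayed at -1.16. With the line labels followed 0 passed by limma, 4 of the 10 having an unadjusted p under 0.05. The test pools the spread over all groups, and by label each CTBP2 pair joins libraries that read as different lines. That fit therefore cannot show that the difference between the lines depends on the labels. This comparison uses the same EV libraries as the CTBP2 comparisons, so the values are not independent of each other. Leaving out MM.1S EV replicate 2 ended the calls of NFKB2 and TRAF2 (adjusted p = 0.0586 and 0.0502 by limma), and leaving out NCI-H929 EV replicate 2 ended those of NFKB2 and TRAF3 (adjusted p = 0.0612 and 0.0509 by limma).

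**Figure D3:**
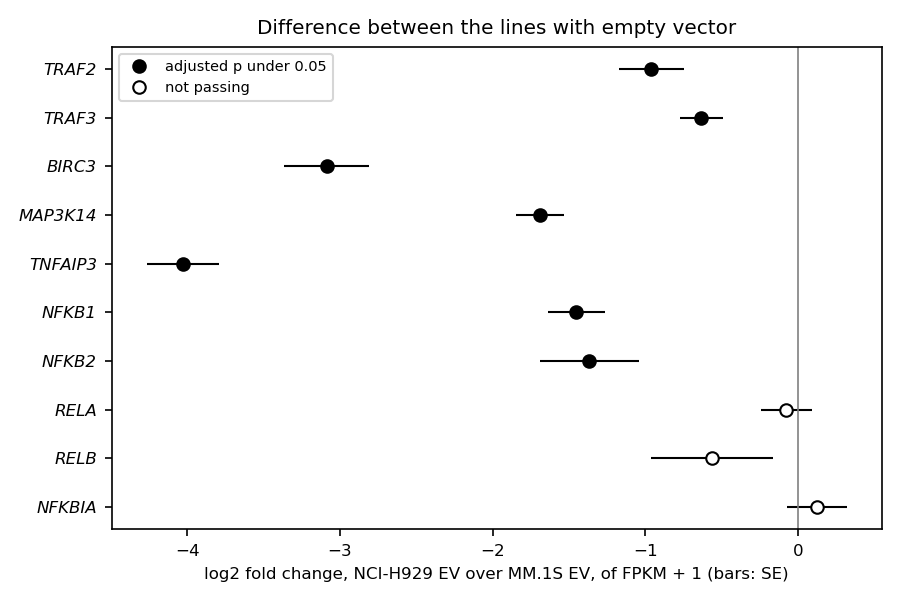
Log2 fold change of FPKM + 1, NCI-H929 EV over MM.1S EV, for each of the 10 genes. Points are limma estimates with SE bars, and filled points have an adjusted p under 0.05. The 7 filled genes are all lower in NCI-H929, from TRAF3 at -0.63 to TNFAIP3 at -4.03.

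Over all 8 libraries, the 4 that read as NCI-H929 lay below the 4 that read as MM.1S for the same 7 genes, as did 24.6% of all genes tested. For TRAF3, BIRC3 and MAP3K14, the order of the groups was MM.1S with CTBP2, MM.1S with EV, NCI-H929 with CTBP2 and NCI-H929 with EV, with no overlap between neighbours. For NFKB1 and NFKB2 the order of means was the same, but NCI-H929 with CTBP2 overlapped NCI-H929 with EV. TNFAIP3 had MM.1S with EV above MM.1S with CTBP2. For RELA all neighbours in the order overlapped, and likewise for RELB. The highest library exceeded the lowest 63.0 times for BIRC3, 32.2 times for TNFAIP3 and 5.09 times for MAP3K14, but 1.86 times for NFKBIA.

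Ratios of FPKM, which are per length, were taken within each library. The MAP3K14 to TRAF3 ratio was 1.06 and 1.35 in NCI-H929 CTBP2 libraries, against 0.636 and 0.684 in NCI-H929 EV libraries. In MM.1S it was 1.43 and 1.57 with CTBP2, against 1.48 and 1.67 with EV, where the groups overlapped. The BIRC3 to TRAF2 ratio was 0.436 and 1.10 in NCI-H929 CTBP2 libraries, against 0.0986 and 0.0752 in NCI-H929 EV libraries. In MM.1S that ratio was 2.115 and 1.227 with CTBP2, against 0.693 and 0.612 with EV, so CTBP2 lay above EV in both lines. NFKB2 exceeded NFKB1 in every library, by 3.12 to 5.89 times.

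The genes whose log2(FPKM + 1) followed a member most closely over the 8 libraries were found by Pearson's r, as a description of libraries that share the difference between lines. BIRC3 was followed by TRAF5 (r = 0.998), UBE4B (r = 0.995) and VAMP1 (r = 0.994). TRAF3 was followed by RASSF2 (r = 0.996), MAPK3 (r = 0.994) and KLF6 (r = 0.993). NFKB2 was followed by SLC25A51 (r = 0.979), MAFG (r = 0.978) and C21orf33 (r = 0.970).

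The other genes of the pathway were read in 3 lists. Of 30 other regulators, 11 rose and 1 fell with CTBP2 over both lines, where 17.4% of all genes passed as higher and 16.7% as lower, and the median log2 fold change of the list was 0.26. TRAF5, a receptor adaptor, had 1.72 and 3.08 FPKM in NCI-H929 CTBP2 libraries, against 0.639 and 0.407 FPKM in NCI-H929 EV libraries. It had 15.4 and 12.1 FPKM with CTBP2 in MM.1S, against 6.27 and 5.86 FPKM with EV. Its groups were apart in both lines, with CTBP2 higher as for 21.4% of all genes tested. The log2 fold change was 1.09 (SE 0.15, adjusted p = 0.00323 by limma). RIPK1, a kinase of the TNF receptor complex, rose by 0.59, BCL3, a nuclear partner of p50 and p52, by 0.91, and the subunit gene REL by 0.65 (adjusted p = 0.00533, 0.00697 and 0.00711 by limma). REL was low, at most 2.85 FPKM in any library. It reached 1 FPKM in the 2 CTBP2 libraries that read as NCI-H929 and in 1 EV library, NCI-H929 EV replicate 2 (1.06 FPKM). So the filter leaned towards a higher REL value with CTBP2. In MM.1S it had 0.561 and 0.452 FPKM with CTBP2, against 0.0902 and 0.0553 FPKM with EV. With equal totals 16 regulators rose, where 30.5% of all genes passed as higher. Fewer regulators rose without the 2 contradicted libraries, without either library labelled MM.1S CTBP2, without MM.1S EV replicate 2 or without either NCI-H929 EV library. Without NCI-H929 CTBP2 replicate 1, 10 rose, with no filter 8 did, and with the lines as labelled 0 did. The share of all genes passing as higher fell in each of these fits too. The list median was 0.16 to 0.50 over the 18 alternatives.

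Of 18 receptors and ligands, 11 were tested, 2 rose and 2 fell over both lines, close in each direction to the 17.4% and 16.7% of all genes. TNFRSF17, the receptor BCMA, had 491 and 381 FPKM in NCI-H929 CTBP2 libraries, against 744 and 664 FPKM in NCI-H929 EV libraries. In MM.1S it had 139 and 144 FPKM with CTBP2, against 270 and 299 FPKM with EV. It was lower with CTBP2 in both lines, without overlap, as were 19.9% of all genes tested. The log2 fold change was -0.85 (SE 0.15, adjusted p = 0.00578 by limma). TNFRSF1B, a TNF receptor, fell by 0.88, while CD27 and LTA were higher by 0.45 and 0.47 (adjusted p = 0.0106, 0.0218 and 0.0277 by limma). CD27 reached 1 FPKM only in the 2 CTBP2 libraries that read as MM.1S (1.004 and 1.18 FPKM), with 0.0434 to 0.434 FPKM elsewhere. It entered the test only through that group, so the filter favoured a higher value with CTBP2. No conclusion is drawn from the CD27 call. Without the 2 contradicted libraries 10 were tested, 1 rose and 2 fell, CD27 was not among those tested and LTA did not pass (adjusted p = 0.0524 by limma). The CD27 call also ended without MM.1S EV replicate 2 or NCI-H929 EV replicate 1 (adjusted p of up to 0.0603 by limma), and that of LTA without either MM.1S EV library, MM.1S CTBP2 replicate 1 or the library labelled NCI-H929 CTBP2 replicate 2 (adjusted p of up to 0.0864 by limma). The median of the list was 0.077, and it was below 0 in 8 of 18 alternatives, among them -0.027 with a median-of-ratios rescale and -0.16 with a filter of 5 FPKM. With equal totals 4 of them passed as higher, where 30.5% of all genes did. Fewer passed as higher without MM.1S CTBP2 replicate 1, MM.1S EV replicate 2, NCI-H929 EV replicate 1 or the library labelled NCI-H929 CTBP2 replicate 2. The share of all genes also fell, except in the last of these fits.

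Of 22 target genes, 15 were tested, 3 rose and 1 fell over both lines, with a median of 0.14, and the share that rose was close to the 17.4% of all genes. The number that rose was 6 with quantile normalization and 7 with equal totals, where 13.8% and 30.5% of all genes passed as higher. More also rose without the library that is labelled NCI-H929 CTBP2 replicate 2, where 17.8% of all genes passed as higher. Without MM.1S EV replicate 1, 4 rose, where 17.3% of all genes did. Leaving out 1 library gave 2 to 6 that rose. The survival genes CFLAR and BCL2L1 rose by 0.84 and 0.54, and the adhesion gene ICAM1 by 0.66 (adjusted p = 0.00987, 0.0127 and 0.0257 by limma). The chemokine gene CCL3 fell by 2.93 (SE 0.77, adjusted p = 0.0197 by limma), and its NCI-H929 EV libraries were far apart, at 840 and 93.4 FPKM. Without the 2 contradicted libraries 3 rose, and neither BCL2L1 nor CCL3 passed (adjusted p = 0.0588 and 0.076 by limma). The CCL3 call also ended without MM.1S CTBP2 replicate 1, MM.1S EV replicate 2 or NCI-H929 EV replicate 1 (adjusted p of up to 0.0603 by limma). That of ICAM1 ended without MM.1S CTBP2 replicate 1, NCI-H929 EV replicate 2 or either library labelled NCI-H929 CTBP2 (adjusted p of up to 0.0693 by limma). With the lines as labelled, CFLAR was the 1 gene of the 3 lists that passed over both lines (adjusted p = 0.0449 by limma).

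**Figure D4:**
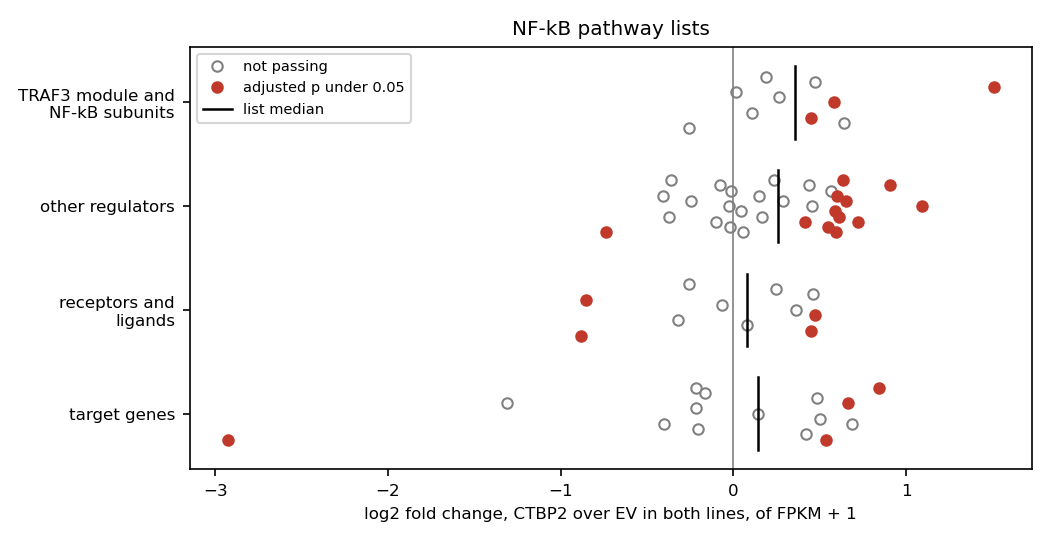
Log2 fold change of FPKM + 1, CTBP2 over EV over both lines, for the 10 genes and the 3 pathway lists. Each point is a gene tested, filled red where the adjusted p was under 0.05, and the black bar is the list median, which runs from 0.077 for receptors and ligands to 0.36 for the 10 genes.

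Within NCI-H929, 9 regulators rose and 1 fell with CTBP2, where 18.3% of all genes passed as higher and 14.6% as lower. The number that rose was 17 with equal totals, where 30.9% of all genes passed as higher. Fewer rose without NCI-H929 EV replicate 1, the library that is labelled MM.1S CTBP2 replicate 2 or either MM.1S EV library. More rose without NCI-H929 CTBP2 replicate 1. The share of all genes passing as higher moved the same way in each of these fits. The list median was 0.23 to 0.69 over the 18 alternatives. The regulators were led by TRAF1 at 1.16, BCL3 at 1.27 and REL at 0.82 (adjusted p = 0.00246, 0.00319 and 0.00549 by limma). The limit of the filter given for REL above applies here too. Of its receptors and ligands, CD70 rose by 1.29, while TNFRSF1B fell by 1.001 and TNFRSF17 by 0.70 (adjusted p = 0.00494, 0.0289 and 0.0375 by limma). The target genes PLEK, CFLAR and IRF1 rose by 0.90, 0.999 and 1.02 (adjusted p = 0.00395, 0.0209 and 0.0444 by limma). Of the target genes 1 rose without either NCI-H929 EV library or the library labelled MM.1S CTBP2 replicate 2. Without NCI-H929 CTBP2 replicate 1, 5 rose, and 6 rose with equal totals. The share of all genes passing as higher was 5.39%, 11.5% and 8.13% in the fits where 1 rose. It was 21.6% where 5 rose and 30.9% with equal totals. Within MM.1S, TRAF5 and RIPK1 rose by 1.06 and 0.64 (adjusted p = 0.035 and 0.0433 by limma). LTA rose by 0.75 in MM.1S, while TNFRSF13B fell by 0.92 and CD70 by 1.14 (adjusted p = 0.02, 0.0248 and 0.0263 by limma). With limma, 0 of the 15 target genes passed in MM.1S, though 7 had an unadjusted p under 0.05, and there ICAM1 was at 0.86 and BCL2L1 at 0.56 (adjusted p = 0.0859 and 0.0962 by limma). Leaving out 1 library at a time, TRAF1, BCL3, REL, CD70 and PLEK passed in NCI-H929 in all 8 fits, CFLAR in 5, TNFRSF1B in 4, and IRF1 and TNFRSF17 in 1, the fit without NCI-H929 CTBP2 replicate 1. Each of these 5 MM.1S calls (TRAF5, RIPK1, LTA, TNFRSF13B and CD70) ended without either MM.1S EV library or MM.1S CTBP2 replicate 1 (adjusted p of up to 0.363 by limma). Those of TRAF5, RIPK1 and CD70 also ended without either NCI-H929 EV library, and those of TRAF5, RIPK1, LTA and TNFRSF13B without the library that is labelled NCI-H929 CTBP2 replicate 2.

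**Figure D5:**
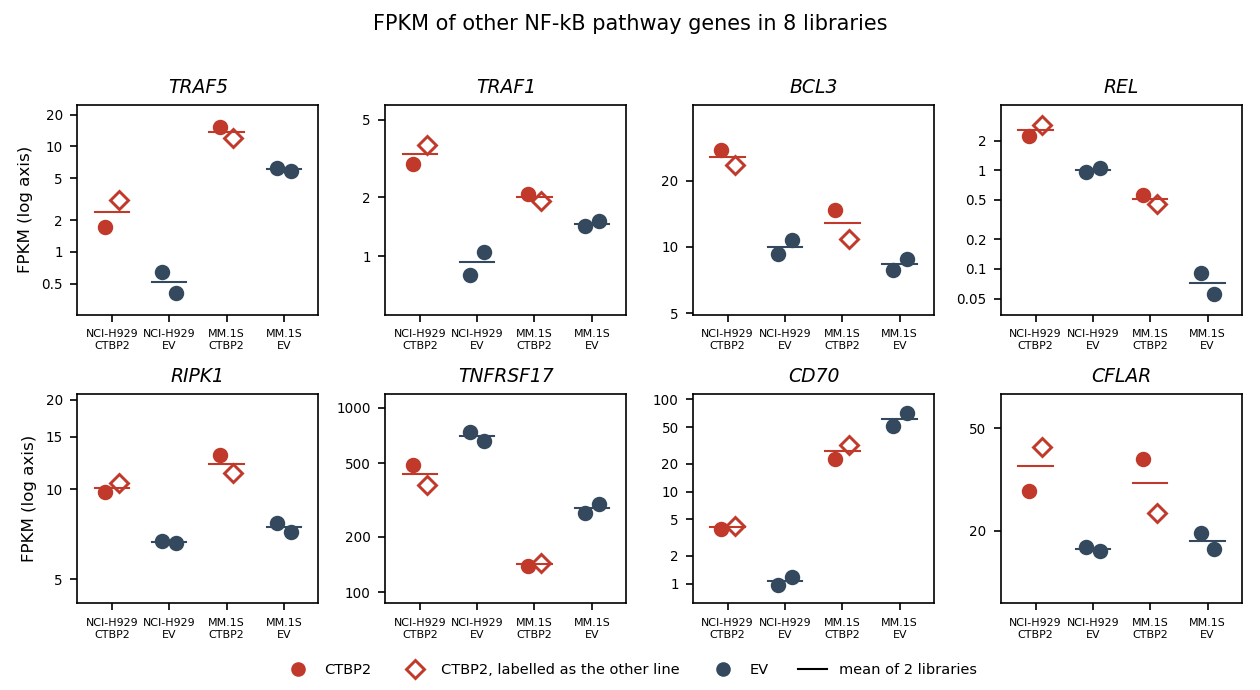
FPKM (log axes, a scale of its own in each panel) of 8 other pathway genes in each library, by line as read from expression and by vector. Filled circles are libraries whose label matches that line, open diamonds the 2 labelled for the other line, and bars the mean of 2 libraries. TRAF5, TRAF1, BCL3, REL, RIPK1 and CFLAR lie higher with CTBP2 in both lines, REL below 1 FPKM in every library that reads as MM.1S. TNFRSF17 lies lower in both, and CD70 lies higher in NCI-H929 and lower in MM.1S.

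Between the lines with EV, 13 of the 30 regulators were lower in NCI-H929 and 5 were higher, where 28.7% of all genes passed as lower and 22.1% as higher. TRAF5 was at -2.22, CYLD, a deubiquitinase that limits NF-kB, at -1.88, and SHARPIN, a subunit of the linear ubiquitin ligase, at -1.44 (adjusted p = 9.36e-05, 0.00016 and 0.000263 by limma). Of the 11 receptors and ligands tested, 7 were lower and 2 higher, with TNFRSF13B, the receptor TACI, at -6.67, CD70 at -4.91 and TNFSF13, the ligand APRIL, at -2.52 (adjusted p = 1.18e-07, 1.2e-06 and 8.63e-06 by limma). Of the 15 target genes 6 were lower and 5 higher, with CD74 at -9.34, IL2RG at -6.50 and PLEK at -4.05 (adjusted p = 5.23e-08, 1.63e-06 and 4.15e-07 by limma). Fewer target genes were higher without MM.1S EV replicate 1 or NCI-H929 EV replicate 1, and the share of all genes passing as higher fell too.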

How the data were processed

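Per the labels' protocols, TruSeq libraries were made from the RNA of 8 cultures. The build GRCh37 (hg19) and the tools HTSeq 0.9.1, DESeq2 2.11.40.2, STAR 2.6.0b-1, FastQC 0.11.7 and Trimmomatic 0.36.5 appear in the submitters' processing notes, with no settings. The table holds FPKM as deposited by the authors, a unit read from the table's name and its values, and which tool made it is not given in the sources used here. A value in FPKM depends on the library total, so a few very abundant features shift all other genes.

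From these values, genes reaching 1 FPKM in 2 or more libraries were kept and log2(FPKM + 1) was tested, which understates the change of low genes. The test was limma 3.58.1 in R 4.3.3, with a mean-variance trend and Benjamini-Hochberg adjustment over all 12583 genes, at 0.05. Both lines together were fitted with line and vector, and the other comparisons with 1 mean per line and vector. Vector came from the labels and line from CCND2 and FGFR3. The members and lists were chosen with earlier results of these data known. All 10 members are named, and of each other list up to 5 called genes by smallest p over both lines, or up to 3 elsewhere. Where a list had none, 2 are given as values. One gene that this rule names is not reported here. The scripts were tested on simulated data. Fragment depth was read from the spacing of low FPKM values, of which 50.6 to 58.9% came out whole within 0.1 of a fragment, too few to recover counts. Each result was also computed with lines as labelled, with another pseudocount (0.1), with 3 rescalings, with no filter or one of 5 FPKM, without the trend, with a replicate block and leaving out libraries. Promoter windows came from RefSeq (GRCh38.p14).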

Additional observations from a re-analysis of the deposited data

Results flagged for a closer look

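CD70, a ligand of the TNF family, differed between the lines in its response to CTBP2. It had 3.87 and 4.26 FPKM in NCI-H929 CTBP2 libraries, against 0.975 and 1.17 FPKM in NCI-H929 EV libraries, and in MM.1S 22.8 and 32.4 FPKM with CTBP2, against 52.1 and 71.4 FPKM with EV. CTBP2 lay above EV in NCI-H929, as for 37% of all genes tested, and below it in MM.1S, as for 31.3%. The interaction was 2.43 on the log2 scale (SE 0.30, NCI-H929 minus MM.1S, adjusted p = 0.0165 by limma). Without the 2 libraries whose line labels the expression contradicts it was 2.62 (adjusted p = 0.0397 by limma). Over the 8 fits that leave out 1 library the value was 2.19 to 2.67, and the call ended in 6 of them, all but those without NCI-H929 CTBP2 replicate 1 or the library labelled MM.1S CTBP2 replicate 2 (adjusted p of up to 0.0886 by limma). The other lists gave no call for this difference with limma: TRAF1 was at 0.87 and NFKBIZ at 0.78 among 30 regulators, and PLEK at 0.84 and TNFAIP8 at 1.23 among 15 target genes (adjusted p = 0.102, 0.191, 0.0896 and 0.19 by limma).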

How the results depend on the processing

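With the lines as labelled, 420, 3, 7, 2 and 5 genes passed over both lines, in MM.1S, in NCI-H929, for the difference between lines and between the lines with EV, beside 4287, 688, 4138, 158 and 6395 by the line read, and 0 members passed in any of these by limma, with an unadjusted p under 0.05 for 1 over both lines, 1 in NCI-H929 and 4 between the lines with EV. Of the 3 pathway lists, 0 genes then passed by limma in MM.1S, in NCI-H929 or between the lines with EV (10, 10 and 21 at an unadjusted p under 0.05). The EV libraries have the same line by label and by expression, so between the lines with EV only the pooled spread changed. Without both CTBP2 replicate 2 libraries the counts were 3060, 1492, 1849, 17 and 6723, with 1 member over both lines. The MM.1S count was 384 with no filter and 422 with a filter of 5 FPKM, and the difference between lines gave 67 genes with a pseudocount of 0.1 and 62 with a filter of 5 FPKM. BIRC3 was not called in MM.1S (0 members) with a pseudocount of 0.1, with no filter or with the replicate block. Quantile normalization gave 5 members over both lines (29.6% of all genes). Equal totals gave 7 members there (37.4% of all genes) and 6 in NCI-H929 (36% of all genes). Leaving out 1 library gave 2452 to 4417 genes and 1 to 4 members over both lines, 6 to 1514 and 0 to 1 in MM.1S, 976 to 4869 and 2 to 4 in NCI-H929, 5 to 208 genes for the difference, and 4586 to 6956 genes and 5 to 8 members between the lines with EV. The lowest of these came without MM.1S CTBP2 replicate 1 in MM.1S (6 genes) and without NCI-H929 EV replicate 2 for the members over both lines (1), and 4 members passed in NCI-H929 without NCI-H929 CTBP2 replicate 1. The named pathway genes whose calls ended without 1 library are given with their values above; those named between the lines with EV passed in all 8 fits.

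The replicate block gave 3717 genes over both lines, 412 in MM.1S, 3614 in NCI-H929, 60 for the difference and 6140 between the lines with EV, and ended the calls of NFKBIA over both lines and BIRC3 in MM.1S (adjusted p = 0.0516 and 0.0602 by limma). Replicate 1 minus replicate 2 correlated at 0.452 between vectors in NCI-H929 and 0.435 in MM.1S, and at -0.276 to 0.0273 across lines. The block fitted the same replicate difference in both lines, so it does not remove a deviation shared within 1 line only. The labels tie no number to a day or culture, so the numbers are not taken as pairs.

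Signs turned for values that had not passed and for the called LTA in MM.1S. By the line labels, MM.1S values of TRAF2, TRAF3, MAP3K14, NFKB1 and NFKB2 were -0.90, -0.029, -0.19, -0.58 and -0.40, that of BCL2L1 -0.86 and that of LTA -0.40. NCI-H929 values of TRAF2 and RELA were then 0.39 and 0.013, and the differences of TRAF2, TRAF3 and TNFAIP8 were 1.29, 0.58 and -1.33. Equal totals gave 0.024 for TRAF2 over both lines, 0.33 for RELA in NCI-H929, 0.048 and 0.057 for the differences of TRAF3 and RELA, and -0.038 for NFKBIA between the lines. Quantile normalization gave 0.17 for RELA in NCI-H929 and -0.069, -0.024 and -0.021 for the differences of BIRC3, NFKB1 and NFKB2. Median ratios gave -0.054 for RELA over both lines, 0.052 for RELA between the lines and -0.0795 for the difference of NFKB2. Without both CTBP2 replicate 2 libraries, RELA and TNFAIP3 were at -0.096 and -0.039 over both lines, TRAF2 at -0.00044 in MM.1S and the difference of BIRC3 at -0.34.

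Leaving out 1 library, RELA spanned -0.044 to 0.086 over both lines, -0.027 to 0.19 in MM.1S, -0.20 to 0.091 in NCI-H929, -0.18 to 0.034 between the lines and -0.28 to 0.0096 for the difference. TNFAIP3 spanned -0.11 to 0.22 over both lines, TRAF2 -0.094 to 0.30 in MM.1S, RELB -1.13 to 0.0049 and NFKBIA -0.12 to 0.37 between the lines. For the difference, BIRC3 spanned -0.061 to 0.64, NFKB1 -0.041 to 0.32, NFKB2 -0.40 to 0.45 and RELB -0.39 to 0.74. The cause was not tested for any of these. Of all values recomputed, 1423 kept direction and call, 184 lost the call, 20 gained it and 53 turned sign. Counting error was not separated from the spread between replicates.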
